A study of Caenorhabditis elegans with 4 samples.

Results

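The cpr genes of the worm Caenorhabditis elegans encode cathepsin B-like cysteine proteases. The members described here are the probe sets on the array whose gene symbol begins with cpr-. There are 9 of them among 22548 probe sets tested, and they stand for 8 genes (cpr-1, cpr-2, cpr-3, cpr-4, cpr-5, cpr-6, cpr-8 and cpr-9) among 17118 genes that a probe set names alone. The rule uses names only and no measured value. Whole wild-type N2 worms were treated with rifampicin (RIF) on 2 arrays, or with its solvent DMSO on 2 arrays, and the titles number them as separate biological replicates. Both groups carried the wild-type genotype and came from liquid medium with carbenicillin, amphotericin B and FuDr, a DNA synthesis inhibitor used here against egg laying. Their food was heat-killed E. coli OP50 with the L4440 vector, supplied a second time on day 5, and harvest was on day 8 of adulthood. No dose of RIF is in the labels, and 1 of their fields names an idr-1 RNAi for the RIF arrays and a control RNAi for the DMSO arrays. The titles, the source names and the study design give RIF and DMSO, which were used here.

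Cathepsin B belongs to the papain family of cysteine proteases. Such enzymes are made as inactive precursors whose propeptide covers the active site, become active on removal of that propeptide in acid compartments, and are held in check by cystatins. In animals they break down proteins in lysosomes, and in nematodes many members are also made in the intestine and digest food in the gut lumen, so that the family is larger in worms than in mammals.

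On RIF treatment, cpr-1 and cpr-9 were downregulated, by 3.74-fold and 3.26-fold, and no cpr gene was upregulated. The words rose and fell are kept for changes of 2-fold or more whose unadjusted p from limma was below 0.05. The study states the same 2-fold and 0.05 limits but names neither limma nor whether its p was adjusted. Of the 9 cpr probe sets, 2 fell (22.2%), against 1.53% of all probe sets tested, and 0 rose, against 1.14%. In either direction together 2 of 9 passed, against 2.67%. The unadjusted p alone was below 0.05 for the same 2 of 9, against 8.47% of all probe sets. Neither fall passed an adjusted p under 0.05 (Benjamini-Hochberg over all probe sets), which 0.0355% of all probe sets did, and the smallest adjusted p of a member was 0.221 from limma. The other 7 probe sets did not pass, and their log2 differences ran from -1.12 for cpr-2 to 1.15 for cpr-5. The median difference over the 9 probe sets was 0.05 on the log2 scale, against 0.03 over all probe sets, with 5 of the 9 above 0 and 4 below. Those 5 include both probe sets of cpr-3, so this median depends on counting that gene by 2 probe sets. With 1 probe set for cpr-3, the middle 2 of the 8 gene values were -0.95 (cpr-6) and 0.05 (cpr-8). The median over all genes was 0.03. Both RIF arrays lay below both DMSO arrays for 3 of the 9 probe sets, against 15.7% of all probe sets, and above them for 1 of 9, against 22.2%.

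**Figure D1:**
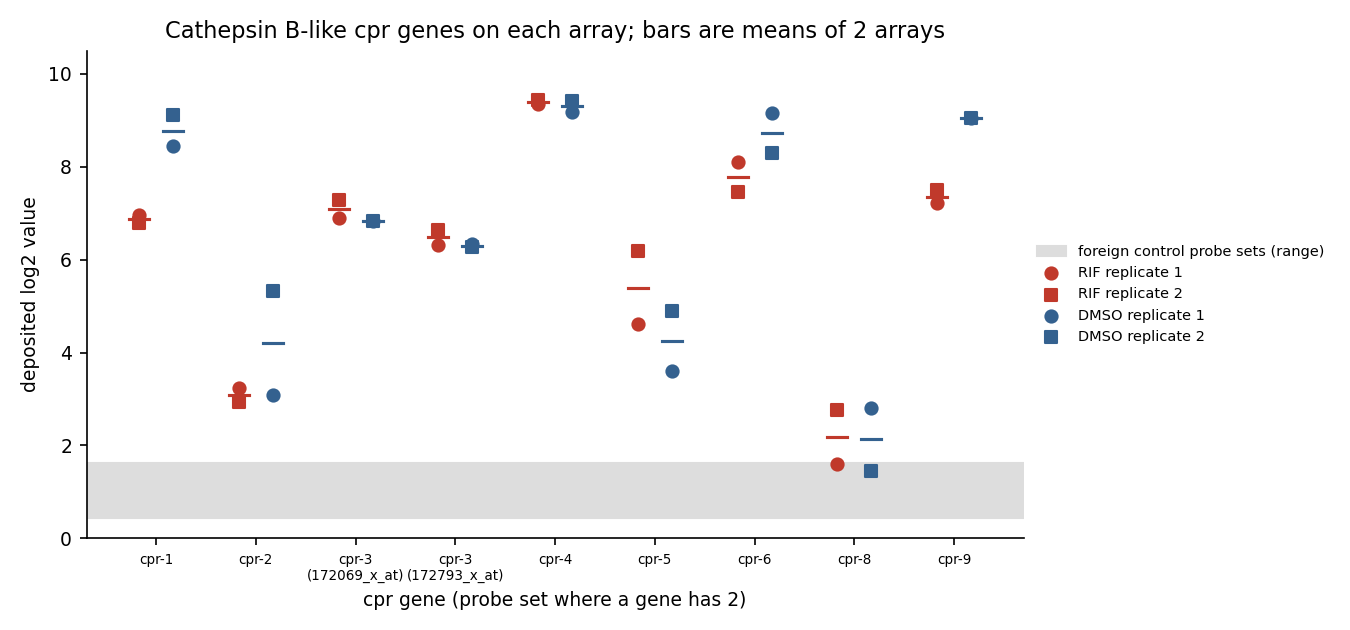
Deposited log2 value (vertical axis) of each cpr probe set (horizontal axis) on the RIF arrays (red, left) and the DMSO arrays (blue, right), with circles for replicate 1, squares for replicate 2, a bar at each mean of 2 arrays, and a grey band for the range of the foreign control probe sets (0.44 to 1.62). For cpr-1, cpr-6 and cpr-9 both RIF arrays sit below both DMSO arrays, whereas the spread within a group is widest for cpr-2, cpr-5 and cpr-8.

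The values are log2 signals as deposited by the authors, and levels of different probe sets cannot be set against each other. On 8 control probe sets, whose transcripts a worm does not make, the values ran from 0.44 to 1.62, which is called here the range of absent transcripts. All 9 cpr probe sets had both group means above it. Median values over all probe sets were 1.90 and 1.85 on the RIF arrays and 1.82 and 1.82 on the DMSO arrays. The median 5′ minus 3′ difference over 8 transcripts that check RNA quality, which is lower in more degraded RNA, was -1.28 and -1.25 on the RIF arrays, against -0.99 in DMSO replicate 1 and -2.16 in DMSO replicate 2, and its part in the results was not tested. Each value with RIF or DMSO rests on 2 arrays, which limits its precision.

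cpr-1 (C52E4.1 on chromosome V), a cysteine protease known to be made in the intestine, read 6.96 and 6.80 on the RIF arrays and 8.44 and 9.12 on the DMSO arrays. The groups did not overlap, and the closest pair of arrays from different groups stood well over 2-fold apart. The means were 6.88 ± 0.11 with RIF and 8.78 ± 0.48 with DMSO (SD, n = 2 each), a log2 difference of -1.90 (standard error 0.28, 95% confidence interval -2.67 to -1.13, adjusted p = 0.341 from limma). Over the 4 fits with 1 array left out its difference ran from -2.25 without DMSO replicate 1 to -1.56 without DMSO replicate 2.

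cpr-9 (F57F5.1, also on chromosome V) read 7.22 and 7.49 on the RIF arrays and 9.06 and 9.06 on the DMSO arrays. The DMSO arrays were nearly identical and both RIF arrays lay far below them. The means were 7.36 ± 0.19 with RIF and 9.061 ± 0.00043 with DMSO (SD, n = 2 each), a log2 difference of -1.70 (standard error 0.17, 95% confidence interval -2.16 to -1.25, adjusted p = 0.221 from limma). With 1 array left out the difference stayed between -1.84 and -1.57. The falls of cpr-1 and cpr-9 passed the threshold in each of 11 alternative fits, with adjusted p from 0.109 to 1 for cpr-1 and from 0.0750 to 1 for cpr-9. Neither probe set has an ending that marks probes shared with other transcripts.

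cpr-6 (C25B8.3), the only member on the X chromosome and a close relative of mammalian cathepsin B, was the third member whose groups did not overlap in the downward direction. It read 8.10 and 7.47 on the RIF arrays, and 9.16 and 8.30 on the DMSO arrays. The nearest RIF and DMSO arrays were closer to each other than the replicates of either group. The log2 difference was -0.95 (standard error 0.40, 95% confidence interval -2.03 to 0.14, adjusted p = 0.637 from limma) and missed both parts of the threshold (unadjusted p = 0.0729). Without DMSO replicate 2 it was -1.38 and passed, and without DMSO replicate 1 it was -0.52.

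cpr-2 (F36D3.9) read 3.24 and 2.93 on the RIF arrays and 3.08 and 5.34 on the DMSO arrays. A single array, DMSO replicate 2, stood apart from the other 3. The log2 difference of -1.12 (95% confidence interval -3.33 to 1.09, adjusted p = 0.763 from limma) rested on it. Without DMSO replicate 2 the difference was 0.01, and without DMSO replicate 1 it was -2.25 and passed the threshold. DMSO replicate 2 is also the array with the lowest 5′ minus 3′ difference.

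cpr-5 (W07B8.5) had the highest difference of the family and the only one above 2-fold upwards. It read 4.61 and 6.18 on the RIF arrays and 3.59 and 4.90 on the DMSO arrays. The groups overlapped, since RIF replicate 1 lay below DMSO replicate 2, and the replicates of each group were over 2-fold apart. The log2 difference was 1.15 (standard error 0.73, 95% confidence interval -0.85 to 3.14, adjusted p = 0.728 from limma). It ran from 0.36 without RIF replicate 2 to 1.93 without RIF replicate 1, and was 0.49 without DMSO replicate 1. Its probe set has an ending for shared probes, so part of its signal could come from another transcript.

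cpr-4 (F44C4.3), whose product is known as a secreted protease, was the best determined of the members that did not pass. It read 9.35 and 9.44 on the RIF arrays and 9.18 and 9.42 on the DMSO arrays. The groups overlapped and all 4 arrays lay close together. The difference of 0.09 had a 95% confidence interval of -0.35 to 0.54 (adjusted p = 0.919 from limma), which leaves out a 2-fold change in either direction. Its sign turned without DMSO replicate 1 (-0.03) and when arrays were centred on ribosomal protein probe sets (-0.06).

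cpr-3 (T10H4.12) is read by 2 probe sets, both with an ending for shared probes. The first read 6.89 and 7.28 on the RIF arrays and 6.83 and 6.83 on the DMSO arrays, a log2 difference of 0.25 (95% confidence interval -0.28 to 0.78). The second read 6.31 and 6.65 on the RIF arrays and 6.33 and 6.27 on the DMSO arrays, a difference of 0.18 (95% confidence interval -0.32 to 0.68). Both probe sets were highest in RIF replicate 2. The groups were apart on the first probe set and overlapped on the second, and both intervals leave out a 2-fold change.

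cpr-8 (W07B8.1) read 1.60 and 2.76 on the RIF arrays and 2.81 and 1.46 on the DMSO arrays. Each group had 1 array within the range of absent transcripts and 1 above it. The difference of 0.05 had a 95% confidence interval of -1.70 to 1.80 (adjusted p = 0.996 from limma), which includes changes well over 2-fold in either direction. Its sign turned without RIF replicate 2 (-0.53) and without DMSO replicate 2 (-0.63).

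**Figure D2:**
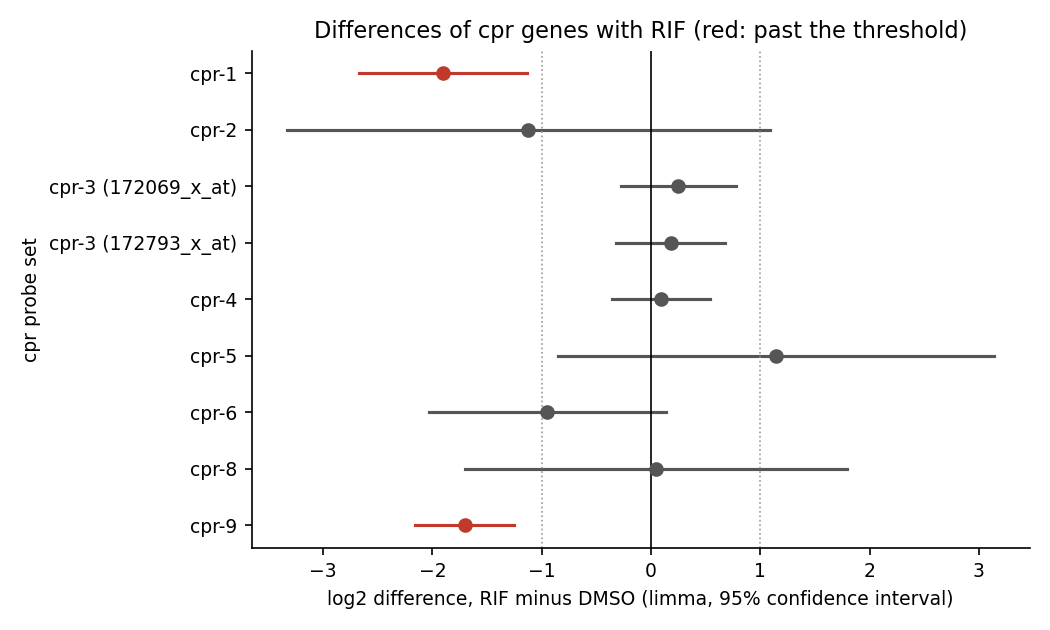
Log2 difference, RIF minus DMSO (horizontal axis), of each cpr probe set (vertical axis) with its 95% confidence interval from limma, where red marks probe sets past the threshold and dotted lines mark a 2-fold change. The intervals of cpr-1 (-2.67 to -1.13) and cpr-9 (-2.16 to -1.25) lie wholly beyond a 2-fold fall, those of cpr-3 and cpr-4 lie within 2-fold, and those of cpr-2, cpr-5, cpr-6 and cpr-8 include both 0 and a change over 2-fold.

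**Figure D3:**
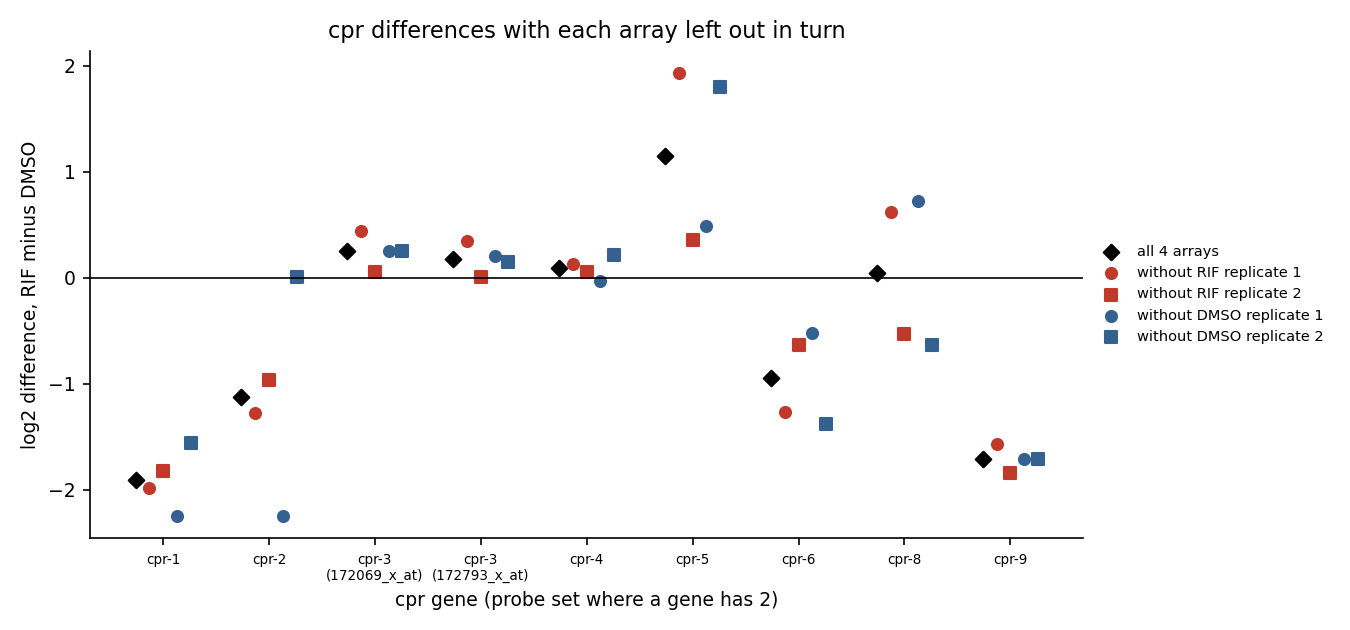
Log2 difference, RIF minus DMSO (vertical axis), of each cpr probe set (horizontal axis) over all 4 arrays (black diamonds) and with 1 RIF array (red) or 1 DMSO array (blue) left out. The values of cpr-9 stay between -1.84 and -1.57, while those of cpr-2 range from -2.25 to 0.01 and those of cpr-8 from -0.63 to 0.73.

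Of the 8 cpr genes, 7 lie on chromosome V, which holds 25% of the 19983 protein-coding genes in the RefSeq annotation of assembly WBcel235. cpr-5 and cpr-8 are direct neighbours there, and W07B8.4 is next to cpr-5 on its other side. W07B8.4 read 3.12 and 2.44 on the RIF arrays and 1.48 and 2.36 on the DMSO arrays, a log2 difference of 0.87 that did not pass. The 2 members that fell, cpr-1 and cpr-9, are separated by 8 protein-coding genes. Of these, 7 were measured and none rose or fell, with differences from -0.13 to 0.24. The genes between them include mif-2, snr-4 and the proteasome subunit gene rpt-1. 

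Among the cpr genes, the centred values of cpr-3 and cpr-4 lay nearest to each other over the 4 arrays (Euclidean distance 0.32 on the log2 scale), followed by cpr-1 and cpr-9 (0.61). Such a distance is small for any genes that vary little over the arrays. cpr-3 and cpr-4 both varied little, so their small distance does not show a shared pattern. Over all genes, those nearest to cpr-1 were txt-4 (distance 0.18), asp-14, an aspartic protease gene (0.35), and unc-15, which encodes the muscle protein paramyosin (0.43). txt-4 read 2.76 and 2.54 on the RIF arrays and 4.18 and 5.08 on the DMSO arrays. The likeness rests on 4 arrays only, and the probe sets of asp-14 and unc-15 have endings for shared probes.

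Of 17 other cysteine proteases of the papain family measured, 1 fell and none rose, and their median log2 difference was 0.16. Among all 17118 genes, 266 fell and 218 rose. The cathepsin L-like cpl-1, which acts in lysosomes and in embryos and moulting, read 9.28 and 9.12 on the RIF arrays and 9.02 and 8.58 on the DMSO arrays (log2 difference 0.40). The cathepsin Z-like cpz-1, known to act in moulting, had a difference of 0.43, and cpz-2, the other gene of that kind, one of 0.44. The cathepsin F-like tag-196 had 0.63 (unadjusted p = 0.0286, adjusted p = 0.536 from limma), under 2-fold, with no overlap between the groups. The gene that fell was Y40H7A.10, which read 2.93 and 3.1 on the RIF arrays and 6.38 and 5.54 on the DMSO arrays (log2 difference -2.94, adjusted p = 0.246 from limma). It is known by its sequence name only and was placed on this list from general knowledge, without an annotation in the tables used. Of the 17 genes, 6 had both means within the range of absent transcripts.

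The cystatin genes cpi-1 and cpi-2, which encode inhibitors of these proteases, did not pass. cpi-1 read 9.09 and 9.20 on the RIF arrays and 8.95 and 9.01 on the DMSO arrays, and cpi-2 read 9.25 and 9.54 with RIF and 9.27 and 9.21 with DMSO. Their log2 differences were 0.17 and 0.15, the second of which became -0.0045 with centring on ribosomal protein probe sets.

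Aspartic proteases and serine carboxypeptidases act beside cathepsin B in lysosomes and in the gut. Of 15 aspartic protease genes measured, 4 fell and none rose, with a median of -0.42, against 266 falls and 218 rises among all 17118 genes. The 4 were asp-14 (-2.13), asp-12 (-1.38), asp-17 (-1.31) and asp-3 (-1.11). Of these, asp-3 is a lysosomal protease known from necrotic cell death. With 1 array left out, its call held only in the fit lacking DMSO replicate 2 (-1.39). Its difference was -1.13 or -1.09 with 1 RIF array removed and -0.83 without DMSO replicate 1. The methods' t-test did not call asp-3 (unadjusted p = 0.0584). asp-1, an intestinal member, had -0.42, and asp-4, which also acts in necrosis, had -0.27, and 0.25 without DMSO replicate 1. Neither passed. Of 12 serine carboxypeptidases, which include the cathepsin A-like genes, 2 fell and none rose, with a median of -0.65. ctsa-1.2 read 3.50 and 2.57 on the RIF arrays and 7.95 and 7.07 on the DMSO arrays, and pcp-2 had a difference of -1.56, which did not pass with either RIF array left out. The count for serine carboxypeptidases was 1 without either RIF array and 4 without DMSO replicate 2. Of 10 calpains, calcium-dependent cysteine proteases outside the papain family, none rose or fell (median -0.02).

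Of 19 other lysosomal hydrolases measured, which cleave lipids, sugars, nucleic acids and modified proteins, 6 fell and none rose, with a median of -0.75. The largest falls were those of the lipase gene lipl-5 (-1.85), the glucosidase gene aagr-1 (-1.50) and the sphingomyelinase gene asm-2 (-1.28). lipl-5 did not pass without RIF replicate 2 or DMSO replicate 1, and asm-2 did not pass without either RIF array or without DMSO replicate 1. With RIF, the mean of asm-2 was at the level of absent transcripts. The count of falls was 3 without RIF replicate 1, 2 without RIF replicate 2 and 3 without DMSO replicate 1. Of 19 subunits of the V-ATPase, the proton pump that acidifies lysosomes, 1 fell, vha-6 (-1.23), an intestinal subunit, and none rose (median -0.14). The call of vha-6 was lost with any single array left out other than DMSO replicate 2, without which 3 subunits fell. Of 13 genes for lysosome membrane and biogenesis none rose or fell (median 0.14). That list holds hlh-30, a transcription factor for lysosomal genes (0.48), and lmp-2, a lysosomal membrane protein gene (0.96), and 1 of its genes rose without RIF replicate 2 and 2 without DMSO replicate 2. Beside these medians and counts, the median over all 17118 genes was 0.03, and 266 of them fell and 218 rose.

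**Figure D4:**
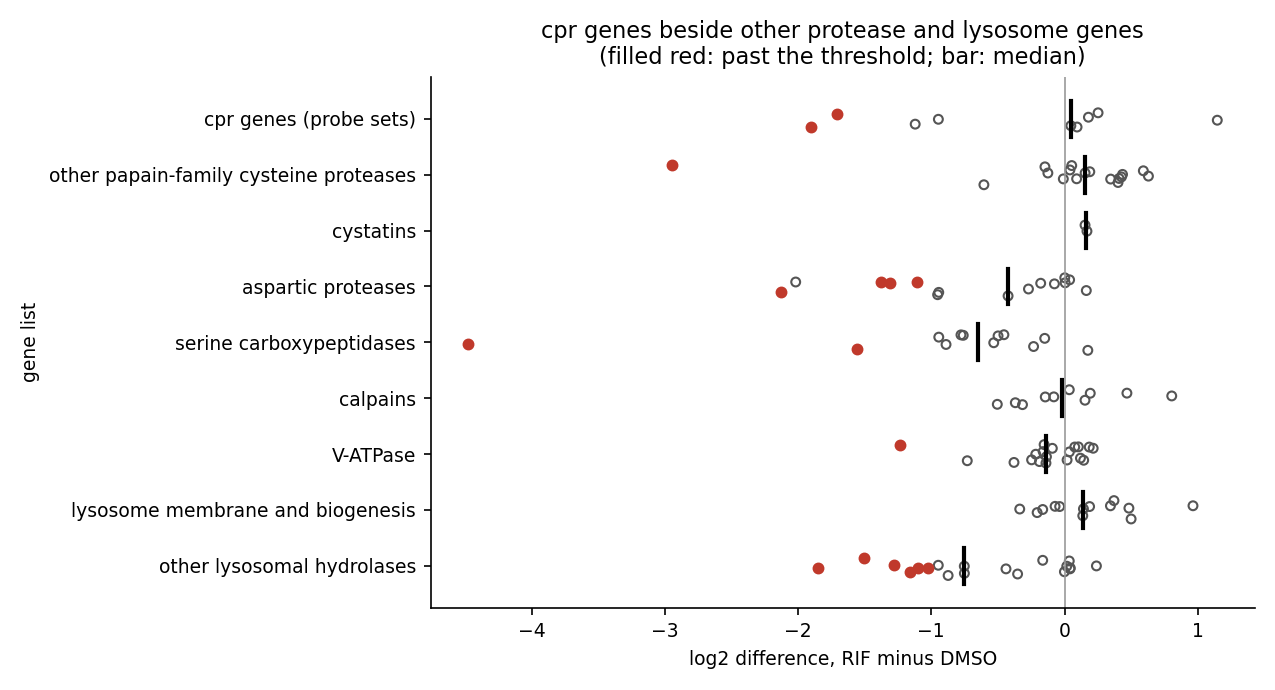
Log2 difference, RIF minus DMSO (horizontal axis), for the cpr probe sets and for the genes of 8 other protease and lysosome lists (vertical axis), with filled red points past the threshold, open points not past it, and a bar at each median. The cpr median of 0.05 is over 9 probe sets, of which cpr-3 has 2, whereas each list has 1 probe set per gene. With 1 probe set for cpr-3, the middle 2 of the 8 gene values are -0.95 (cpr-6) and 0.05 (cpr-8). List medians are -0.42 for aspartic proteases, -0.65 for serine carboxypeptidases and -0.75 for other lysosomal hydrolases, and no filled point lies above 0.

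Since whole worms were measured, fewer cells of a type and less RNA per cell cannot be told apart. Of 13 intestinal markers, 1 fell (vha-6) and none rose, with a median log2 difference of 0.08, and none had both means within the range of absent transcripts. Their mean log2 value was 5.04 and 5.05 on the RIF arrays and 5.03 and 4.79 on the DMSO arrays. The intestinal transcription factor elt-2 had a difference of 0.63 and the gut esterase gene ges-1 one of -0.07, and neither passed. The markers differed in both directions, with ifo-1 at 0.84, pept-1 at 0.77 and spl-1 at -0.84, all under 2-fold. Both RIF arrays lay above both DMSO arrays for 5 of the 13, against 22.2% of all probe sets, and below them for 2, against 15.7%. Of 8 body wall muscle markers 4 fell, myo-3, unc-54, unc-15 and unc-27, against 266 of all 17118 genes. The mean of the 8 was 3.75 and 3.35 on the RIF arrays and 4.53 and 4.44 on the DMSO arrays, with a median difference of -0.76. Of 8 hypodermal markers 2 fell (dpy-13 and sqt-3), with a mean of 4.33 and 3.88 with RIF and 4.70 and 4.68 with DMSO, and a median difference of -0.375. None of 9 pharyngeal, 12 germ line and 10 neuronal markers rose or fell, with medians of 0.21, -0.46 and 0.37. All germ line differences were below 0 (-0.97 to -0.20), with both RIF arrays below both DMSO arrays for 6 of 12, against 15.7% of all probe sets. All neuronal differences were above 0 (0.07 to 0.73), with both RIF arrays above for 8 of 10, against 22.2%. Pharyngeal differences went both ways (-0.59 to 0.80). Both means were within the range of absent transcripts for 2 muscle, 1 hypodermal, 2 pharyngeal, 0 germ line and 0 neuronal markers. The RIF mean of myo-3 (1.28) was also within it. The part of these tissues in the falls of cpr-1 and cpr-9 was not tested.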

How the data were processed

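RNA of whole N2 worms was measured on 4 Affymetrix arrays, 2 with RIF and 2 with DMSO. The authors deposited log2 values per probe set. The submitters' processing notes name RMA and Affymetrix Expression Console, without versions, and the paper's methods name GeneSpring GX. Of 22625 probe sets, 77 controls were left out. The others entered 1 fit as deposited, by lmFit and eBayes of limma 3.58.1 (R 4.3.3), without a filter, two-sided, as RIF minus DMSO. The prior had an SD of 0.19 on 2.11 degrees of freedom, and Benjamini-Hochberg adjustment covered all probe sets. The titles call the arrays of a group biological replicates, but the labels do not describe separate cultures, so p-values measure the spread between these samples. The procedure was tested on simulated data.

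Gene symbols come from GEO's platform annotation, updated through RefSeq (20701 of 20766 probe sets of 1 gene matched, while 887 name several genes and 895 none). A gene of a list is represented by its probe set with the highest mean. F57F5.1 was planned for the papain list but is cpr-9. Named are all cpr probe sets, up to 3 called members per list and direction, the cystatins, cpl-1, cpz-1, cpz-2, asp-1, asp-3 and asp-4, and the 3 genes nearest to cpr-1. tag-196, the markers, neighbours, lmp-2 and hlh-30 were named after their values were seen. The members and lists were chosen with earlier results of these data known. Alternatives were the methods' t-test (named there for other experiments), the replicate number as a block, leaving out 1 array at a time, a robust prior with an intensity trend, quantile normalization, centring on medians or ribosomal protein probe sets, a filter on level, unshared probe sets and other fold thresholds. Promoter and protein sequences were not used here.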

Additional observations from a re-analysis of the deposited data

How the results depend on the processing

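Over 14 alternative settings, the count of cpr probe sets that fell stayed at 2, except 0 with a 4-fold threshold and 3 without DMSO replicate 1 (cpr-2 added) or without DMSO replicate 2 (cpr-6 added). The count that rose stayed at 0, except 1 with the replicate block, which was cpr-5 (log2 difference 1.15, adjusted p = 0.494 from limma). The replicate numbers name the arrays without stating a shared culture or day. Deviations from the group means correlated with r = 0.103 between same-numbered arrays over 22548 probe sets, and the block changed no other cpr call. Over all probe sets the block gave 379 lower and 305 higher, against 346 and 257.

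With 1 array left out, the cpr median ran from -0.531 to 0.135, the probe sets that fell from 304 to 735 and those that rose from 205 to 464. The lone array is then assumed to vary like the other group. The methods' t-test called 130 lower and 108 higher probe sets, at the threshold and 2 in all after Benjamini-Hochberg. Centring on ribosomal protein probe sets moved the median of all probe sets to -0.13 and the share of higher calls to 25.1% (173 higher, 517 lower), against 42.6%.

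Differences that changed sign were those of cpr-8 (-0.53 without RIF replicate 2, -0.63 without DMSO replicate 2, -0.011 with median centring, -0.11 with ribosomal centring, and -0.63 to 0.73 over the fits with 1 array left out), cpr-4 (-0.064 with ribosomal centring and -0.027 to 0.22 with 1 array left out), cpr-2 (-2.25 to 0.0054), asp-4 (-0.79 to 0.25) and cpi-2 (-0.0045 with ribosomal centring). cpr-6 (-1.38 without DMSO replicate 2) and cpr-2 (-2.25 without DMSO replicate 1) passed with 1 array left out.

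With the methods' t-test, 1 serine carboxypeptidase, 0 V-ATPase subunits and 1 other lysosomal hydrolase fell. With 1 array left out, falls numbered 1 to 2 for the papain list, 1 to 4 for serine carboxypeptidases, 0 to 3 for V-ATPase subunits and 2 to 5 for other hydrolases, and rises 0 to 1 for V-ATPase subunits and 0 to 2 for lysosome membrane genes. The count of aspartic proteases that fell also changed with any single array left out other than RIF replicate 1. The cause of these changes was not tested.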
